A study of Mus musculus with 12 samples.

Results

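The nuclear genes for the subunits of respiratory complexes II to V and for cytochrome c were examined in RNA of mouse liver. They were taken by name from a table of 54838 genes, as the protein-coding genes called Sdha to Sdhd, Cyc1 or Cycs or with names that begin with Uqcr, Cox4 to Cox8 or Atp5, and 50 genes met this rule. Of these, 4 belong to complex II, 9 to complex III and 18 to complex IV, 1 is cytochrome c and 18 carry Atp5 names and are given here with complex V. Of the 12 libraries, 4 are labelled DMH, 4 DM and 4 CTL and the meaning of these letters, like any strain, age, sex or treatment, is not stated in the labels. The title of the series concerns anti-diabetic effects of a red Chlamydomonas alga rich in protoporphyrin IX, a precursor of haem, and no label says which group received it. The source labels name liver tissue and the extraction text names retinas. Whether the 4 libraries of a group stem from 4 animals is not stated, and p-values therefore rest on a spread that may be only technical.

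The respiratory chain passes electrons from food to oxygen across the inner mitochondrial membrane, and the proton gradient built on the way drives ATP synthase, complex V. Complex II (succinate dehydrogenase) takes electrons from the citric acid cycle, complex III passes them to the mobile carrier cytochrome c, and complex IV (cytochrome c oxidase) reduces oxygen. All subunits of complex II are encoded in the nucleus, whereas complexes III, IV and V combine nuclear subunits with a few that are encoded by mitochondrial DNA, and the haem groups of complexes II, III and IV and of cytochrome c come from protoporphyrin IX. Hepatocytes are rich in mitochondria, and several complex IV subunits exist as a general form and as a form restricted to muscle, lung or testis.

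Libraries held 13430122 to 17038017 counts. Levels are CPM, counts scaled to a common library total with TMM factors, and the 4 values of a group are given in the order of libraries 1 to 4. Hepatocyte markers (Alb, Apoa1, Ttr, Tat, Cps1 and Serpina1c) were all detected, at a summed 29844 to 40842 CPM in DMH, 38467 to 50296 CPM in DM and 40457 to 51600 CPM in CTL, while the photoreceptor genes Prph2 and Crx were at 0 in all libraries. Mitochondrially encoded genes made up 30.1% ± 6.23 of the counts in DMH, 24.2% ± 6.55 in DM and 15.4% ± 7.36 in CTL (SD, n = 4 each). The lowest shares were those of CTL1 (7.88%) and CTL2 (10.7%), and the highest was that of DMH1 (37.6%). Exact permutation tests of this share, 2-sided over 70 arrangements, gave adjusted p = 0.257 for DMH against DM, 0.171 for DMH against CTL and 0.257 for DM against CTL. The part of these shifts, and of the lower hepatocyte markers of DMH, in the results on these genes was not tested. T and B cell markers summed to 20.2 to 36.6 CPM in DMH, 10.7 to 52.8 CPM in DM and 138 to 168 CPM in CTL, and Kupffer cell markers to 100.1 to 493 CPM in DMH, 59.4 to 149 CPM in DM and 291 to 587 CPM in CTL. In bulk tissue, fewer cells of a type and less RNA per cell cannot be told apart.

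Nuclear transcripts of complexes II to V were lower in DMH than in either other group. The 50 genes together held 4002, 5290, 4479 and 5462 CPM in DMH, against 7252, 6779, 6096 and 6381 CPM in DM and 6131, 7033, 6892 and 6613 CPM in CTL. On this TMM scale all 4 DMH libraries lay below all 8 others, and DM and CTL overlapped. As a share of plain library totals the 50 genes held 0.330% to 0.578% in DMH, 0.495% to 0.739% in DM and 0.620% to 0.866% in CTL. There DM2 (0.495%) lay below DMH4 (0.578%), so DMH and DM overlapped. Detection filters passed 44 of the 50 genes. Among these 44, the median of each gene's log2 deviation from its own mean over the 12 libraries was -0.68, -0.24, -0.35 and -0.11 in DMH, 0.30, 0.22, 0.06 and 0.15 in DM, and 0.00, 0.24, 0.19 and 0.20 in CTL. DMH1 stood lowest, with 40 of 44 genes below their own mean, but the other DMH libraries also had 34 to 38 genes below it, against 4 to 14 in DM and 9 to 22 in CTL.

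**Figure D1:**
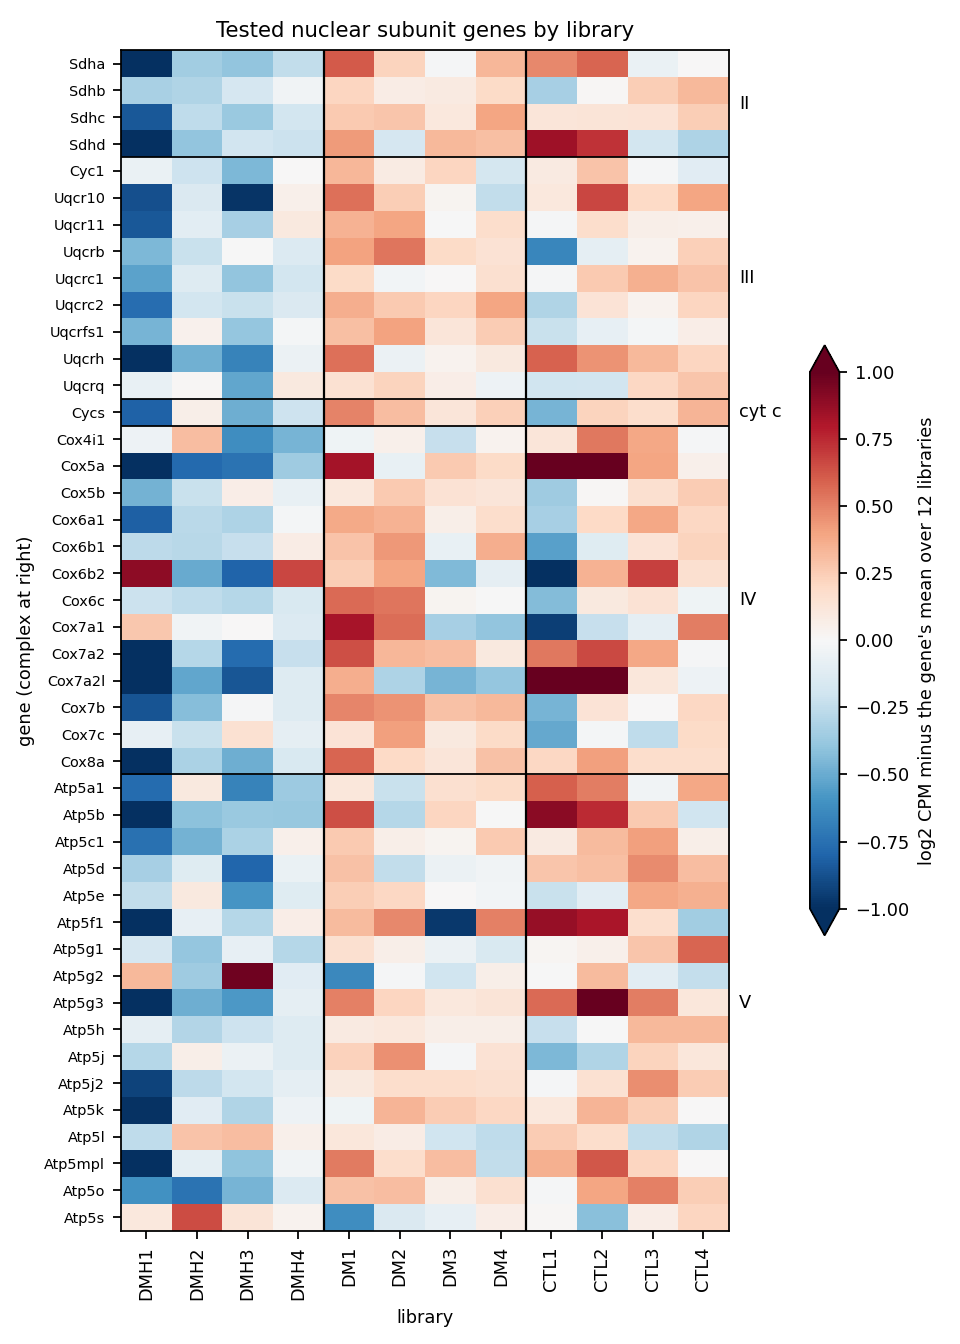
Log2 CPM of the 44 tested genes (rows, in blocks by complex) in each library (columns), minus the mean of the gene over 12 libraries, with the colour scale ending at -1 and 1. Blue cells fill most of the DMH columns, most deeply in DMH1, where 40 of 44 genes lay below their own mean.

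In DMH against CTL, edgeR's quasi-likelihood test called 14 of the 44 genes at an adjusted p under 0.05, all of them lower (31.8%), where 8.15% of all 14643 tested genes were called lower and 15.4% in either direction. The 14 are Sdha and Sdhc of complex II, Uqcrc1 and Uqcrh of complex III, Cox5a, Cox7a2, Cox7a2l and Cox8a of complex IV, and Atp5a1, Atp5b, Atp5c1, Atp5d, Atp5g3 and Atp5o of complex V. In all, 38 of 44 fold changes were below 0, with a median of -0.45 on the log2 scale, while 50.6% of all tested genes were below 0, with a median of -0.01. For 18 genes every DMH library lay below every CTL library, as it did for 10.9% of all tested genes. The count of 14 depends on single libraries: it was 0 without CTL2, 2 without DMH3, 4 without CTL1, 5 without DMH1, 6 without CTL3 or DMH2, 7 without DM3, 8 without DM1 and 9 without CTL4 or DM2, and it was 0 when only DMH and CTL were fitted and 0 with the mitochondrial percentage of each library as a covariate, a fit that called 0 of all 14643 genes. Under that covariate the median of the 44 genes was -0.38 against CTL and -0.44 against DM, with 40 and 41 of them below 0. The fold changes of the 14 then ran from -0.76 to -0.20 on the log2 scale, against -1.84 to -0.53 without it, and 10 of them moved by over 1.5 times.

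In DMH against DM, 40 of the 44 fold changes were below 0 (median -0.49), as were 47.5% of all tested genes (median 0.03), yet edgeR called none at an adjusted p under 0.05, where 0.0341% of all tested genes were called (0.00683% lower). At an unadjusted p under 0.05, 25 of the 44 lay lower and 0 higher, and 10.3% of all tested genes lay lower. DESeq2 called 8 of the 44, all lower, and 2.08% of all tested genes lower. For 23 genes every DMH library lay below every DM library, against 7.36% of all tested genes, and for 12 of the 44 (27.3%) every DMH library lay below all 8 DM and CTL libraries, against 3.18%. These 12 are Sdha, Sdhc, Uqcrc1, Uqcrh, Cox5a, Cox7a2, Cox8a, Atp5b, Atp5g3, Atp5j2, Atp5k and Atp5o. Their separation depends on the TMM factors, which were 0.731 for DM2 and 1.06 for DMH4. On plain library totals, as in the deposited FPKM, DMH4 lay above DM2 for all of the 12 but Cox7a2. Sdha then had 14.4 FPKM in DMH4 and 13.8 in DM2, Uqcrh 30.5 and 21.1, and Cox7a2 56.9 and 58.0. The comparisons with DM and with CTL share the DMH libraries. Without DMH1 the median was -0.32 against DM and -0.29 against CTL.

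In DM against CTL the genes lay on both sides, with 24 fold changes below 0 and 20 above and a median of -0.05, where 52.4% of all tested genes were below 0 with a median of -0.03. No member was called in this comparison by edgeR or DESeq2, where edgeR called 0.219% and DESeq2 6.34% of all tested genes. At an unadjusted p under 0.05 edgeR found 1 of 44 genes, Cox7a2l, and 18.8% of all tested genes. Complex V had 15 of 17 fold changes below 0 (median -0.10), whereas complexes II, III and IV had medians of 0.04, 0.06 and 0.11. No test was made of that difference between complexes.

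**Figure D2:**
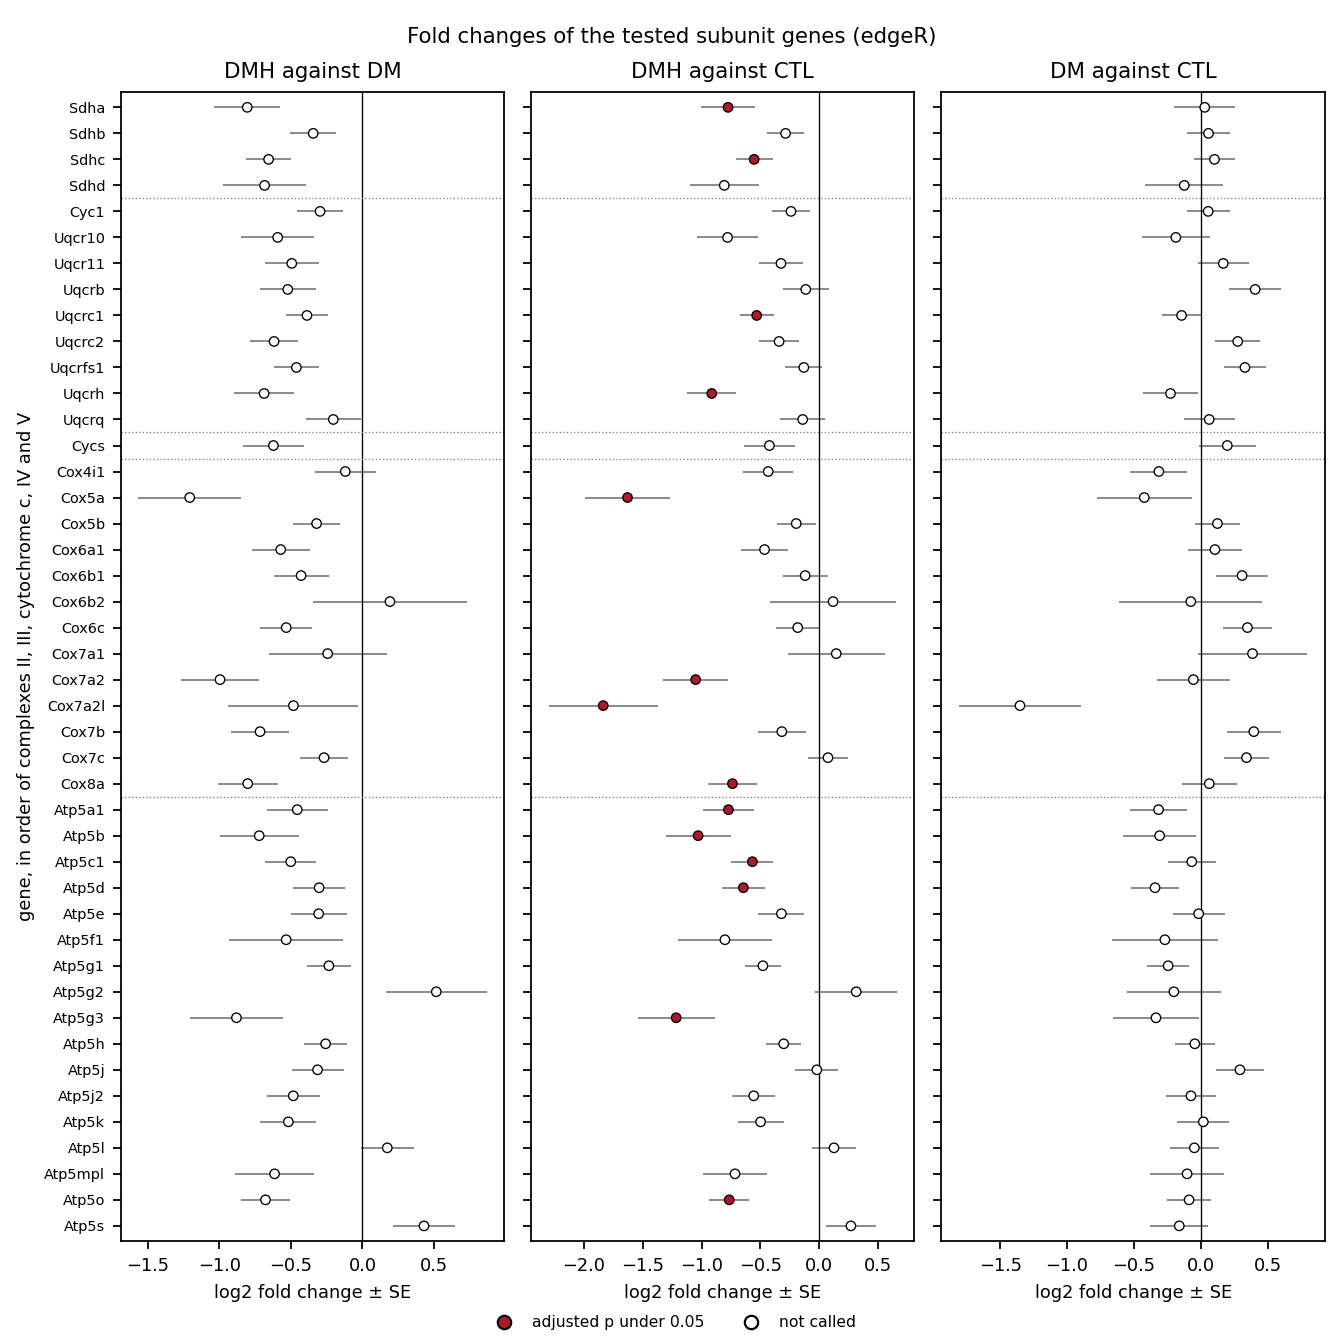
Log2 fold changes (edgeR) with standard errors derived from the F statistic, for DMH against DM, DMH against CTL and DM against CTL. The 44 tested genes are in the order of complexes II, III, cytochrome c, IV and V, with filled points where the edgeR adjusted p was under 0.05. The points of DMH against DM lie left of 0 for 40 of 44 genes without a filled point, 14 points of DMH against CTL are filled, and those of DM against CTL lie around 0.

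By complex, the median log2 fold change of DMH against DM was -0.67 over 4 genes of complex II, -0.49 over 9 genes of complex III, -0.48 over 13 genes of complex IV and -0.46 over 17 genes of complex V. Against CTL the medians were -0.66 for complex II, -0.33 for complex III, -0.32 for complex IV and -0.56 for complex V. All genes of complexes II and III lay lower in DMH than in DM and than in CTL, and the exceptions were in complexes IV and V. The 4 genes that lay higher in DMH than in DM were Cox6b2, Atp5g2, Atp5l and Atp5s. Of these, Atp5l averaged over 10 CPM, and among the 40 genes that did so, 39 lay lower in DMH than in DM.

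**Figure D3:**
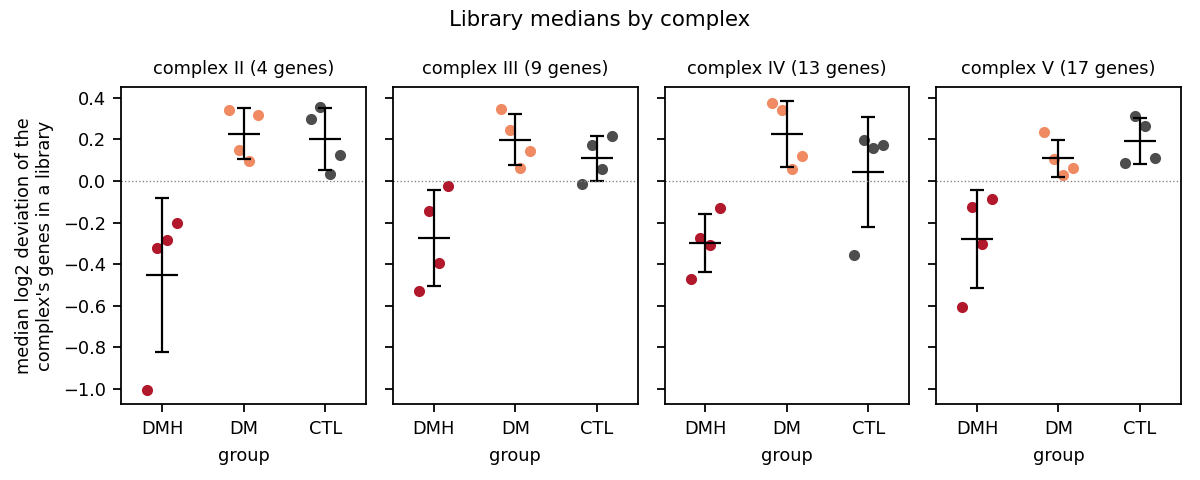
Median over the genes of a complex of the log2 deviation from each gene's mean, 1 point per library, for DMH, DM and CTL, with the mean and SD of the 4 libraries of a group as bars. The DMH libraries lie lowest in complexes II, III and V, by a narrow margin between DMH4 and CTL1 in complex III, while in complex IV the library CTL1 lies among them.

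The promoters of some of these genes are shown because the genes lay lower together. Nuclear respiratory factor 1 (NRF1) and the ETS factor GABPA (also called NRF2) are known to bind many promoters of nuclear respiratory genes, and the oestrogen-related receptor alpha (ERRA) acts with their coactivators. RefSeq promoter windows (GRCm38.p6, 250 bases before to 50 after the start) were found for 37 of the 50 genes by symbol or unique synonym, 35 of them tested. The last 120 bases before and the 30 after the start are printed for 6 of the 11 genes with a window whose DMH libraries lay below all others, in lower case on the strand of the gene. These 6 were picked by hand with the matches known, from each of complexes II to V. Of them 5 hold a match to the NRF1, ETS or ERRA letters, and of the 5 not printed (Atp5b, Atp5j2, Atp5k, Cox7a2 and Uqcrc1) 2 do. Capitals mark matches on either strand to GCGCA and GCGC with 1 base between them for NRF1 (Sdha, Atp5g3 and Atp5o), CCGGAAG for an ETS factor (Uqcrh and Cox8a) or AAGGTCA for ERRA (Atp5g3).
Sdha promoter, chr13:74350211-74350360, minus strand: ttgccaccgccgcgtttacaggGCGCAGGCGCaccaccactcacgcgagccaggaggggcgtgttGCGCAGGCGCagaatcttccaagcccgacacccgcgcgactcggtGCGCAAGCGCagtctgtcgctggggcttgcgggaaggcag
Uqcrh promoter, chr4:116075041-116075190, minus strand: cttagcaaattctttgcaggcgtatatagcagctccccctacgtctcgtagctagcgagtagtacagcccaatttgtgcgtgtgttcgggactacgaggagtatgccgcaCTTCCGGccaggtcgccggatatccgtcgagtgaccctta
Cox5a promoter, chr9:57521112-57521261, plus strand: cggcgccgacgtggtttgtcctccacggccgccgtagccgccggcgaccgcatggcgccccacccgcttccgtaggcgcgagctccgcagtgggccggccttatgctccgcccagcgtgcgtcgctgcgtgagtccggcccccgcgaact
Cox8a promoter, chr19:7217587-7217736, minus strand: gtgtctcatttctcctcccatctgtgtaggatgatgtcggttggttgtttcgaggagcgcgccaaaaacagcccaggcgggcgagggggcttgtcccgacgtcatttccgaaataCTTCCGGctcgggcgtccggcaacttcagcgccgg
Atp5g3 promoter, chr2:73911297-73911446, minus strand: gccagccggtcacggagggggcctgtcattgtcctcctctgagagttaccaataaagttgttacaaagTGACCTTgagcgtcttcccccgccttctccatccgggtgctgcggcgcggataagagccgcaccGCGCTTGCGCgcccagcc
Atp5o promoter, chr16:91931601-91931750, minus strand: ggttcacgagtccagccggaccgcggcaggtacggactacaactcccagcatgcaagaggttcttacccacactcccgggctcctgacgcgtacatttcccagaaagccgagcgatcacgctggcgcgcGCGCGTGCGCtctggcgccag
Sdha holds 3 NRF1 matches in this stretch, starting at -98, -55 and -10 from the RefSeq start, and the window of Cox5a holds none of these motifs, which says only that these letters do not occur there. None of the marked matches overlaps another. Over the whole windows, NRF1 letters were found in 10 of 35 tested genes (28.6%), in 11% of the 10408 tested genes with a window and in 5.19% of all 27025 RefSeq genes with one. ETS letters were found in 12 of 35 (34.3%), 19.5% of tested genes and 9.93% of all. ERRA letters were found in 5 of 35 (14.3%), against 4.27% and 5.38%, and AAGATGG, the letters of the factor YY1, in 4 of 35 (11.4%), against 8.38% and 7.28%. The GC box GGGCGG, read by SP1, was in 14 of 35 (40.0%), below its share of 65.8% among tested genes. The 10 genes with NRF1 letters had a median log2 fold change of -0.54 in DMH against DM and -0.55 against CTL, and the 25 without them -0.46 and -0.33. The split by ETS letters lay the other way against CTL, with medians of -0.46 against DM and -0.32 against CTL for the 12 genes with them, and -0.48 and -0.56 for the 23 without them. Of those 10 genes 5 were among the 14 called lower, and of those 25 genes 7 were, while 2 of the 12 genes with ETS letters and 10 of the 23 without them were.

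Complex II oxidises succinate and is the only complex that is also an enzyme of the citric acid cycle. Sdha, its flavoprotein (ENSMUSG00000021577, chromosome 13, 74322254 to 74350280), had 42.5, 75.1, 72.7 and 80.3 CPM in DMH, 146, 112, 94.6 and 120.4 CPM in DM and 133, 143, 91.0 and 95.9 CPM in CTL. Every DMH value lay below every value of DM and of CTL. The log2 fold change was -0.80 ± 0.23 against DM (SE, edgeR adjusted p = 0.126, not called) and -0.77 ± 0.23 against CTL (adjusted p = 0.0407). Sdhc, a membrane anchor that helps to hold the haem b group (ENSMUSG00000058076, chromosome 1, 171127165 to 171150603), showed the same separation on a narrow spread. It had 59.2, 89.2, 82.3 and 94.0 CPM in DMH, 128, 129, 114 and 139.9 CPM in DM and 116, 117, 117 and 126 CPM in CTL. The fold changes were -0.66 ± 0.16 against DM (edgeR adjusted p = 0.115) and -0.55 ± 0.16 against CTL (adjusted p = 0.0348). DM differed from CTL by 0.10 ± 0.16, within its error. The other anchor, Sdhd, varied most within CTL. It had 21.8, 37.3, 42.8 and 42.1 CPM in DMH, 66.0, 43.5, 61.5 and 60.4 CPM in DM and 88.3, 81.1, 43.2 and 39.5 CPM in CTL. CTL1 and CTL2, the libraries with the smallest mitochondrial share, were high, CTL4 lay among the DMH values and CTL3 just above them, so DMH did not separate from CTL, and against DM the fold change was -0.68 ± 0.29 (edgeR adjusted p = 0.214). Sdhb, the iron-sulphur subunit, had 105, 107, 117 and 128 CPM in DMH, 153, 138, 140.0 and 149.8 CPM in DM and 104, 133, 156 and 164 CPM in CTL. All its DMH values lay below all DM values, and CTL1 lay below all of them.

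Complex III moves electrons from ubiquinol to cytochrome c through the Rieske protein and cytochrome c1. Uqcrh, the acidic hinge protein that helps cytochrome c1 meet cytochrome c (ENSMUSG00000063882, chromosome 4, 116066965 to 116075071), fell furthest in the complex. It had 32.4, 46.4, 40.7 and 62.0 CPM in DMH, 94.8, 62.2, 66.2 and 69.1 CPM in DM and 97.3, 88.3, 80.9 and 75.3 CPM in CTL. DMH lay below both other groups, narrowly so at DMH4 and DM2. The log2 fold change was -0.91 ± 0.21 against CTL (SE, edgeR adjusted p = 0.0181) and -0.69 ± 0.21 against DM (adjusted p = 0.132, not called). Uqcrc1, a core protein related to the mitochondrial processing peptidases (ENSMUSG00000025651, chromosome 9, 108936633 to 108949623), had 80.7, 107, 88.8 and 103 CPM in DMH, 133, 115, 117 and 130.4 CPM in DM and 116, 140.1, 149 and 143 CPM in CTL. Its groups DMH and CTL did not overlap, and it fell by 0.53 ± 0.14 on the log2 scale against CTL (edgeR adjusted p = 0.0310).

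Other parts of complex III lay between. Uqcrc2, the partner core protein, had 57.4, 85.7, 83.2 and 88.2 CPM in DMH, 125, 117, 113 and 128 CPM in DM and 78.8, 107, 99.7 and 113 CPM in CTL. DMH lay below DM in all libraries, at a fold change of -0.62 ± 0.17 (edgeR adjusted p = 0.117), while the CTL values overlapped both. Uqcrfs1, the Rieske iron-sulphur protein, was highest in DM. It had 158, 224, 166 and 213 CPM in DMH, 267, 287, 236 and 258 CPM in DM and 186, 205, 214 and 227 CPM in CTL. Every DM value lay above every CTL value, as for 7.32% of all tested genes, and the fold changes of -0.46 ± 0.16 for DMH against DM and 0.33 ± 0.16 for DM against CTL did not pass (edgeR adjusted p = 0.149 and 0.278). Uqcrb, which helps to form the ubiquinone site, followed the same order of means. It had 125, 147, 170.4 and 156 CPM in DMH, 226, 249, 196 and 189 CPM in DM and 109, 161, 175 and 203 CPM in CTL. CTL1 was the lowest library here, DM against CTL gave 0.41 ± 0.19 (edgeR adjusted p = 0.280), and without CTL1 it was 0.27. The remaining small subunits Uqcr10, Uqcr11 and Uqcrq and the haem protein cytochrome c1 (Cyc1) lay lower in DMH than in DM and in CTL and were not called. Cycs, the gene of cytochrome c itself, had 55.6, 101, 69.4 and 84.3 CPM in DMH, 137, 120.4, 106 and 115 CPM in DM and 70.5, 113, 109.8 and 123 CPM in CTL. Its DMH values lay below all DM values and overlapped those of CTL.

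Complex IV held the 2 largest falls among the 14 called genes, those of Cox7a2l and Cox5a. Cox5a, a nuclear subunit that faces the matrix (ENSMUSG00000000088, chromosome 9, 57521274 to 57532426), had 13, 32.5, 33.5 and 43.7 CPM in DMH, 99.4, 53.1, 66.9 and 63.8 CPM in DM and 122, 126, 73.5 and 57.8 CPM in CTL. DMH1 was lowest of all libraries, CTL1 and CTL2 were highest, and every DMH value lay below every other. The log2 fold change against CTL was -1.63 ± 0.36 (SE, edgeR adjusted p = 0.0172). Cox7a2, the form of subunit 7A used outside muscle (ENSMUSG00000032330, chromosome 9, 79755361 to 79759878), had 26.1, 67.8, 48.3 and 70.2 CPM in DMH, 129, 104, 102 and 88.1 CPM in DM and 119, 131, 108 and 82.0 CPM in CTL. All DMH values were again lowest, with fold changes of -1.05 ± 0.28 against CTL (edgeR adjusted p = 0.0275) and -0.99 ± 0.28 against DM (adjusted p = 0.118). Cox8a, the general form of the smallest subunit (ENSMUSG00000035885, chromosome 19, 7215158 to 7217616), had 57.0, 106, 94.1 and 119 CPM in DMH, 198, 152, 144 and 162 CPM in DM and 153, 176, 149.6 and 149 CPM in CTL. It separated in the same way, at -0.74 ± 0.21 against CTL (edgeR adjusted p = 0.0345) and -0.80 ± 0.21 against DM (adjusted p = 0.115).

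Cox7a2l, also called Scaf1, is a relative of subunit 7A known to link complexes III and IV in supercomplexes (ENSMUSG00000024248, chromosome 17, 83501918 to 83517330). It had 9.16, 16.0, 12.6 and 21 CPM in DMH, 29.6, 18.5, 16.6 and 17.6 CPM in DM and 102, 60.7, 24.8 and 22.2 CPM in CTL. CTL1 and CTL2 stood far above CTL3 and CTL4, which lay near the DM values. Against CTL the log2 fold change was -1.84 ± 0.46 in DMH (SE, edgeR adjusted p = 0.0252) and -1.35 ± 0.46 in DM (adjusted p = 0.147, not called, and -0.80 without CTL1). Cox7b, a small subunit of the X chromosome, was high in DM. It had 88.2, 119, 159 and 147 CPM in DMH, 225, 219, 197 and 202 CPM in DM and 117, 177, 161 and 186 CPM in CTL. DMH lay below DM in all libraries at -0.72 ± 0.20 (edgeR adjusted p = 0.122), and DM lay above CTL in all libraries. Cox7c, another small subunit, had 26.6, 24.1, 31.2 and 26.5 CPM in DMH, 30.9, 37.5, 30.2 and 32.2 CPM in DM and 19.8, 27.7, 23.5 and 32.1 CPM in CTL. DM against CTL gave 0.34 ± 0.17 (edgeR adjusted p = 0.289), with overlap at the highest CTL library.

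Levels between isoforms of complex IV subunits are compared per length, as deposited FPKM averaged over the 12 libraries or in each of them. These lengths are unions of all annotated exons and lower the FPKM of genes with long alternative transcripts. The general forms Cox4i1, Cox6a1, Cox6b1, Cox7b and Cox8a had at least 42.5 FPKM in every library, and their restricted relatives at most 0.600 FPKM. Cox4i1 averaged 122 FPKM and had 93.3, 131, 81.7 and 90.1 FPKM in DMH, 115, 88.9, 121 and 121 FPKM in DM and 129, 208, 163 and 116 FPKM in CTL. Its partner Cox4i2, known from lung, had 0 to 6 counts in a library. Cox6a1 had 98.8, 158, 182 and 221 FPKM in DMH, 275, 196, 267 and 240.1 FPKM in DM and 169, 298, 291 and 243 FPKM in CTL. DMH lay below DM in CPM in every library, and the heart and muscle form Cox6a2 had at most 5 counts in a library. Cox6b1 had 137, 148, 180.4 and 221 FPKM in DMH, 243, 195, 228 and 256 FPKM in DM and 137, 225, 230.1 and 231 FPKM in CTL, where all groups overlapped. Its testis relative Cox6b2 was low in every group, at 0.547, 0.206, 0.193 and 0.595 FPKM in DMH, 0.412, 0.335, 0.292 and 0.319 FPKM in DM and 0.0919, 0.546, 0.600 and 0.384 FPKM in CTL. In the 7A family Cox7a2 averaged 70.5 FPKM, Cox7a2l 9.18 and the muscle form Cox7a1 1.41. Cox7a2 had at least 16.5 FPKM in every library, but Cox7a2l came down to 2.28 FPKM in DMH1, where Cox7a1 had 1.36 FPKM. Cox7a1 had 1.36, 1.18, 1.45 and 1.28 FPKM in DMH, 2.5, 1.5, 1.27 and 0.996 FPKM in DM and 0.639, 1.39, 1.33 and 1.97 FPKM in CTL. Cox7b averaged 98.8 FPKM and Cox7b2 had 0 counts in all 12 libraries. Cox8a averaged 259 FPKM, the muscle and heart form Cox8b had at most 3 counts in a library, and Cox8c had 0 in all. A count of 0 allows up to 3 counts, which is 0.176 to 0.223 CPM of a library total, for counting error only. Of 6 muscle markers, Myh4 and Mb were at 0 in all libraries, and the list summed to at most 2.4 CPM in DMH, 1.6 CPM in DM and 20 CPM in CTL, while all 4 testis markers were at 0.

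**Figure D4:**
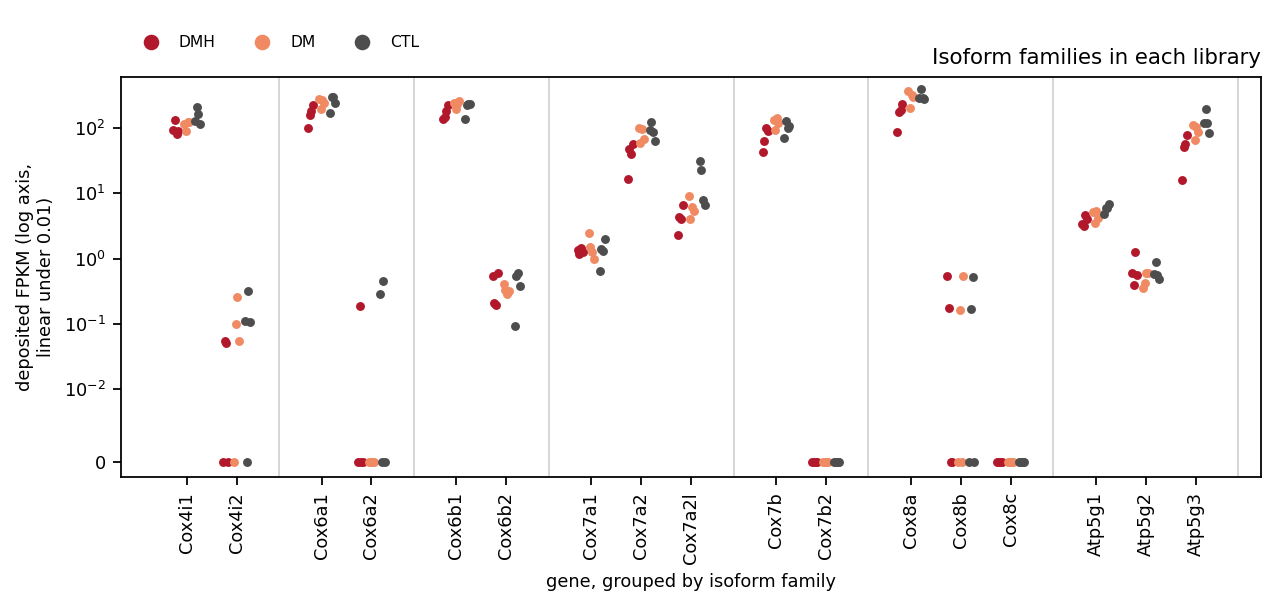
Deposited FPKM of isoform families in each library on a log axis that is linear under 0.01, with 1 point per library for DMH, DM and CTL. The restricted forms Cox7b2 and Cox8c lie at 0, and Cox4i2, Cox6a2 and Cox8b lie between 0 and 0.533 FPKM. Atp5g3 lies far above Atp5g1 and Atp5g2. The DMH points of Cox7a2 lie below all its others, while those of Cox8a and Atp5g3 overlap DM on this scale of plain library totals.

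Complex V makes ATP with a catalytic head (F1) turned by a membrane ring of c subunits and held by a peripheral stalk. In the head, Atp5b carries the catalytic sites (ENSMUSG00000025393, chromosome 10, 128083273 to 128090391) and had 77.2, 127, 130.0 and 129 CPM in DMH, 263, 138, 195 and 167 CPM in DM and 314, 282, 202 and 146 CPM in CTL. DMH1 was far below DMH2, DMH3 and DMH4, which were nearly equal, and all DMH values lay below all others. The fold change against CTL was -1.03 ± 0.28 (log2, SE, edgeR adjusted p = 0.0299). Atp5a1, the alpha subunit (ENSMUSG00000025428, chromosome 18, 77773729 to 77782869), had 139, 253, 149 and 185 CPM in DMH, 257, 203, 265 and 270.4 CPM in DM and 359, 339, 232 and 309 CPM in CTL. DMH2 lay above CTL3, so the groups overlapped, at a fold change of -0.77 ± 0.22 against CTL (edgeR adjusted p = 0.0333). Atp5c1, the gamma shaft (ENSMUSG00000025781, chromosome 2, 10056016 to 10080510), had 88.3, 107, 119 and 154 CPM in DMH, 178, 154, 151 and 178 CPM in DM and 158, 185, 197 and 155 CPM in CTL. DMH4 came within the DM range but stayed below CTL, and the fold changes were -0.57 ± 0.18 against CTL (edgeR adjusted p = 0.0491) and -0.50 ± 0.18 against DM (adjusted p = 0.157).

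Atp5d, the delta subunit of the central stalk (ENSMUSG00000003072, chromosome 10, 80138632 to 80145818), had 172, 198, 125 and 205 CPM in DMH, 264, 181, 207 and 210.2 CPM in DM and 262, 266, 299 and 267 CPM in CTL. CTL stood above all DMH libraries and, but for DM1, above DM. DMH against CTL gave -0.64 ± 0.18 (log2, SE, edgeR adjusted p = 0.0345) and DM against CTL -0.34 ± 0.18 (adjusted p = 0.332). Atp5o, the oligomycin-sensitivity protein that joins the head to the stalk (ENSMUSG00000022956, chromosome 16, 91925214 to 91931687), had 70.9, 64.7, 78.0 and 97.9 CPM in DMH, 132, 133, 112 and 121 CPM in DM and 107, 142, 153 and 128 CPM in CTL. It had the smallest adjusted p of the 44 tested genes against CTL, with every DMH value below every other, at -0.76 ± 0.17 (edgeR adjusted p = 0.0166), and -0.68 ± 0.17 against DM (adjusted p = 0.115). Atp5j, factor 6 of the stalk, had 168, 214, 197 and 188 CPM in DMH, 241, 281, 203 and 227 CPM in DM and 150.0, 166, 239.7 and 221 CPM in CTL. The groups overlapped, and the fold changes were -0.31 ± 0.18 for DMH against DM, -0.02 ± 0.18 for DMH against CTL and 0.29 ± 0.18 for DM against CTL (edgeR adjusted p = 0.346, 0.950 and 0.411). Atp5f1, subunit b of the stalk, spread widely within groups, at 32.2 to 98.6 CPM in DMH, 48.0 to 133 CPM in DM and 74.0 to 172 CPM in CTL.

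The c ring is encoded by a family of genes that give the same mature protein from different precursors. Atp5g3 (ENSMUSG00000018770, chromosome 2, 73908447 to 73911326) had 57.6, 163, 154 and 216 CPM in DMH, 324, 265, 247 and 251 CPM in DM and 339, 459, 326 and 248 CPM in CTL. Its DMH values were the lowest of all libraries, at -1.22 ± 0.33 against CTL (log2, SE, edgeR adjusted p = 0.0295) and -0.88 ± 0.32 against DM (adjusted p = 0.165, and -0.59 without DMH1). By deposited FPKM it was the highest form: Atp5g3 averaged 50.1 ± 25.6 FPKM in DMH, 91.3 ± 19.7 in DM and 128 ± 46.0 in CTL (SD, n = 4 each). The size of the gap is uncertain, since the length used was 9797 bases for Atp5g1 and 2931 for Atp5g3. Expressed near-copies of Atp5g1 and Atp5g2, given below, may also hold part of their reads. Atp5g1 averaged 3.8 ± 0.669 FPKM in DMH, 4.56 ± 0.876 in DM and 5.85 ± 0.874 in CTL. It had 40.1, 34.5, 42.7 and 37.0 CPM in DMH, 50.5, 47.0, 43.4 and 40.7 CPM in DM and 45.9, 46.9, 54.7 and 67.6 CPM in CTL, so DMH lay below CTL in every library without a call. Atp5g2 had 1.55, 0.928, 2.48 and 1.12 CPM in DMH, 0.744, 1.21, 1.04 and 1.27 CPM in DM and 1.21, 1.54, 1.12 and 1.02 CPM in CTL and all its groups overlapped. Of the membrane subunits, Atp5j2 and Atp5k had all DMH libraries below all others without a call, Atp5mpl lay lower and Atp5l higher in DMH than in DM. Atp5s, given with complex V by its name (RefSeq symbol Dmac2l), had 9.79 to 15.1 CPM in DMH, 6.16 to 9.99 CPM in DM and 7.11 to 11.1 CPM in CTL. A second gene listed under the name Atp5o, ENSMUSG00000116933, had 0 counts in all libraries.

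Values of genes with near-identical copies are uncertain, since the counting could split reads between them. Expressed copies, defined as pseudogenes or Gm-named genes that hold at least 2% of the 25-base words of a member and average at least 3 CPM, were found for 15 members, 19 copies in all. Gm12338, a copy of Cox7c, averaged 264 CPM against 28.5 for Cox7c itself. Gm10175 averaged 68.2 CPM against 1.27 for Atp5g2 and holds 37.7% of its words, and it was called lower in DMH against CTL where Atp5g2 lay higher. Gm10221 averaged 143 CPM against 21.5 for Atp5l, Gm10250 177 against 116 for Atp5h, Gm11273 125 against 119 for Cox5b and Gm10039 89.8 against 45.9 for Atp5g1. The copies lay on the same side as most members: 19 of 19 lay lower in DMH than in DM (median log2 fold change -0.51) and 18 of 19 lower than in CTL (median -0.44). Of all tested genes, 47.5% lay lower in DMH than in DM and 50.6% lower than in CTL. In DMH against CTL 5 of the 19 copies were called lower, where 8.15% of all tested genes were. These 5 are Gm10039, Gm10175, Gm10221, Gm12231 (Atp5f1) and Gm5436 (Atp5o). Gm10221 had a log2 fold change of -0.89 ± 0.23 against CTL (SE, edgeR adjusted p = 0.0246), where its parent Atp5l lay higher. Of the genes called, Cox5a, Atp5a1, Atp5d and Atp5o overlap exons of a gene on the other strand that averaged at most 6.66 CPM, and the strand setting of the counting is not stated.

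The mitochondrially encoded partners did not share the direction. The 6 genes of complexes III to V on mitochondrial DNA (mt-Cytb, mt-Co1, mt-Co2, mt-Co3, mt-Atp6 and mt-Atp8) held a summed 267951, 203121, 165973 and 118947 CPM in DMH, 124940, 283356, 93363 and 132738 CPM in DM and 48580, 49743, 106793 and 140097 CPM in CTL. The groups overlapped widely. All 6 lay higher in DMH than in DM (median log2 fold change 0.29) and 5 of 6 higher than in CTL (median 1.17), with none called by edgeR and 5 at an unadjusted p under 0.05 against CTL, as were 33.0% of all tested genes in either direction. The exception was mt-Atp6, at -0.02 ± 0.84 against CTL. mt-Co3 had 19460 ± 6852 CPM in DMH, 15553 ± 7823 CPM in DM and 8252 ± 3727 CPM in CTL, a log2 fold change of 1.24 ± 0.43 against CTL (SE, edgeR adjusted p = 0.0653). The ratio of these 6 to the 50 nuclear genes ran from 21.8 to 67.0 in DMH, from 15.3 to 41.8 in DM and from 7.07 to 21.2 in CTL. The lowest DMH ratio lay just above the highest CTL ratio, and DM overlapped both. Of the 7 genes of complex I on mitochondrial DNA, 7 lay higher in DMH than in CTL (median 1.17). Of these 7 genes 1 was called higher, mt-Nd6, where 7.25% of all tested genes were called higher. On chromosome 1, 7 pseudogene copies of mitochondrial genes held 4.27% to 18.4% of the counts of a library, so values of mitochondrial genes are uncertain. 

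**Figure D5:**
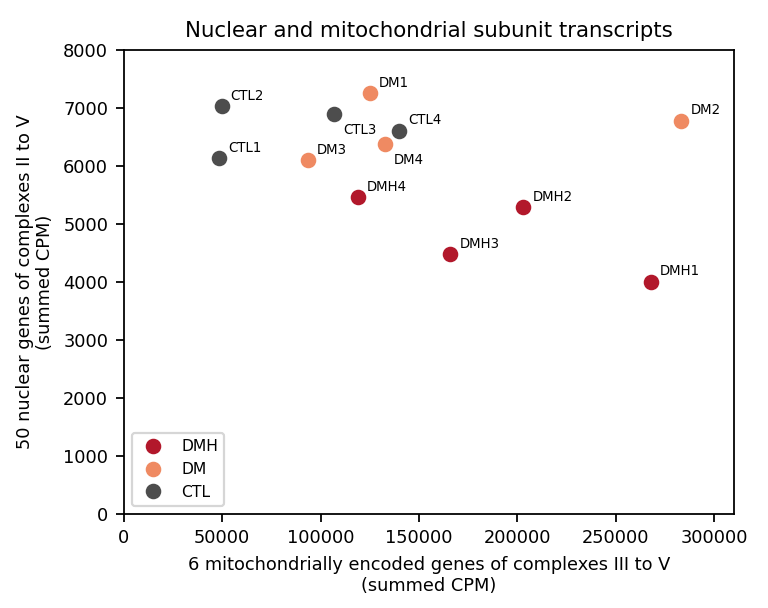
Summed CPM of the 50 nuclear genes of complexes II to V against the summed CPM of the 6 mitochondrially encoded genes of complexes III to V, 1 point per library. The DMH points lie lowest on the vertical axis, at 4002 to 5462 CPM, while the horizontal positions of the groups overlap.

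Genes around the complexes were read from lists written from textbook knowledge. Of 35 tested assembly factors of complexes II to V, 3 were called lower in DMH against CTL and none higher. These are Cox14, Coa3 and Coa5, all known for complex IV assembly. Of all tested genes, 8.15% were called lower and 7.25% higher. By sign, 24 of the 35 lay below 0 against CTL, as did 50.6% of all tested genes. Their medians were -0.21 against CTL and -0.24 against DM on the log2 scale. Cox14 had 13 ± 1.89 CPM in DMH, 19.1 ± 1.92 CPM in DM and 19.2 ± 2.96 CPM in CTL (SD, n = 4 each), and Sdhaf3, a complex II assembly factor, had 6.29 ± 0.575 CPM in DMH, 9.31 ± 0.805 CPM in DM and 8.0 ± 0.847 CPM in CTL without a call. Of 17 citric acid cycle genes, 3 were called lower against CTL (Suclg1, Fh1 and Mdh2) and 14 lay below 0. Their medians were -0.22 against CTL and -0.43 against DM. Complex I, a neighbour by function, had 9 of 46 genes called lower and 1 called higher against CTL. By sign 39 of the 46 lay below 0 against CTL, with medians of -0.30 against CTL and -0.33 against DM. Ndufa4, called lower and listed there by its name, is now known as a subunit of complex IV, at -1.23 ± 0.31 against CTL (SE, edgeR adjusted p = 0.0237). Import and carrier genes had 5 of 20 called lower against CTL (Hspd1, Hspa9, Vdac3, Tomm20 and Tomm70a) and 1 called higher (Immt). Of the 20, 18 lay below 0, with a median of -0.45. Mitochondrial antioxidant genes had 2 of 7 called lower against CTL, Prdx3 and Gpx4, and 6 of 7 below 0, with a median of -0.58. Genes called in these lists other than Cox14, Hspd1, Prdx3, Ndufc2, Gpd2 and Ppargc1b were named after their values were seen.

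Among genes that feed or bypass the chain, 3 of 13 were called lower in DMH against CTL, namely Gpd2, Etfdh and Coq7. By sign 9 of the 13 lay below 0. Of all tested genes, 8.15% were called lower in that comparison. Gpd2, the mitochondrial glycerol-phosphate dehydrogenase, had 2.67 ± 1.20 CPM in DMH, 13 ± 3.82 CPM in DM and 11.9 ± 5.43 CPM in CTL (SD, n = 4 each), a log2 fold change of -2.15 ± 0.41 against CTL (SE, edgeR adjusted p = 0.0120). Etfa, a subunit of the flavoprotein that carries electrons from fatty acid oxidation, was higher in DM, at 240.2 ± 47.5 CPM in DMH, 396 ± 41.0 CPM in DM and 209.9 ± 28.3 CPM in CTL, and was not called. The inhibitor of ATP synthase Atpif1 and the dimer partner Usmg5 had a median of -0.57 against CTL without a call. In DMH against CTL, 7.25% of all tested genes were called higher and 8.15% lower. Of 15 regulators of respiratory genes, which include Nrf1 and Gabpa, 5 lay below 0 in that comparison. None of the 15 was called lower and 1 was called higher. This was Ppargc1b, a coactivator of mitochondrial biogenesis, with 5.20 ± 1.13 CPM in DMH, 2.00 ± 0.893 CPM in DM and 1.96 ± 0.418 CPM in CTL, at 1.41 ± 0.32 against CTL (SE, edgeR adjusted p = 0.0181). Esrra, the gene of ERRA, had 51.0 ± 6.68 CPM in DMH, 34.2 ± 6.86 CPM in DM and 39.9 ± 5.86 CPM in CTL without a call.

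The members are short genes, and short genes as a class lay lower in DMH and in DM than in CTL. The median mRNA length was 671 bases for the 44 members and 2144 for all tested genes. Other protein-coding genes under 1000 bases had a median log2 fold change of -0.18 in DMH against CTL and -0.05 against DM. In DM against CTL their median was -0.10. With the median of the length class subtracted from each member, the median of the members was -0.30 against CTL, with 34 of 44 below 0, and -0.47 against DM, with 40 of 44 below 0.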

How the data were processed

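RNA of 12 liver libraries was sequenced, 4 each of DMH, DM and CTL. The series' design text names FastQC 0.11.8, Trimmomatic 0.36, HISAT2 2.1.0 with GRCm38, and StringTie for counting; how StringTie was set, with which annotation and on which strand, is not stated. The submitters' processing notes also list DESeq2 without a version. Per gene, the table deposited by the authors holds a whole-number count and an FPKM value for each library. The deposited FPKM was found to be the count over a fixed gene length and the unscaled library total.

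Counts were tested with the quasi-likelihood test of edgeR 4.0.16 (R 4.3.3, TMM scaling, robust settings) in 1 model of 3 group means with 9 residual degrees of freedom. Before this, filterByExpr (minimum count 10, minimum total 15) kept 14643 genes, over which Benjamini-Hochberg adjustment ran. The SE given with an edgeR fold change was derived from this test. It is the absolute log2 fold change over the square root of the F statistic. The fits were tested on simulated data. Between replicates of a group, the chi-square per degree of freedom was 39.5 or more, so none was counted as a copy of another; pairs across groups were not examined. Alternatives were DESeq2 1.42.0, limma 3.58.1 on log2(FPKM + 1) and log2(FPKM + 0.1) computed from the deposited FPKM, and other scalings and filters. Genes with full values are those called in any comparison, the 3 per complex of smallest p in DMH against DM, the 2 in each other comparison, and the isoform families; of other lists, 2 genes each. Members and lists were chosen with earlier results of these data known. All 50 members were found in GENCODE M21, 49 with the same start and end.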

Additional observations from a re-analysis of the deposited data

Results flagged for a closer look

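In 6 of 66 groups of 4 library values of the genes with full values, 1 library stood apart from the other 3 by more than Dixon's critical value for 4 samples (0.829), and chance alone gives about 1 in 20 groups. DMH1 was lowest in Atp5b, at 77.2 CPM where the other DMH libraries had 127 to 130.0 CPM, and in Uqcrc2, at 57.4 CPM where the others had 83.2 to 88.2 CPM. CTL3 was highest in Atp5d, at 299 CPM where the other CTL libraries had 262 to 267 CPM. CTL2 was highest in Cox8a, at 176 CPM where the others had 149 to 153 CPM. CTL4 was highest in Sdhc, at 126 CPM where the others had 116 to 117 CPM. DM1 was highest in Cox7a2l, at 29.6 CPM where the other DM libraries had 16.6 to 18.5 CPM.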

How the results depend on the processing

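The count of 14 of 44 members called in DMH against CTL was 8 of 47 with no filter and, of the 44, 6 with limma on log2(FPKM + 1), 4 on log2(FPKM + 0.1), 5 by fold 2 with unadjusted p, 0 in a fit of the 2 groups alone and 0 with the mitochondrial percentage as covariate. It was 0 to 14 without single libraries, and none of the 14 genes kept its call in all 12 of these fits. In DMH against DM, where 0 were called, DESeq2 called 8, fold 2 with unadjusted p took 1 (Cox5a, named after its value was seen), and fits without single libraries called 0 to 1. In DM against CTL fold 2 with unadjusted p took 1, Cox7a2l. The median of members in DMH against CTL was -0.62 on log2(FPKM + 0.1), where the median of all genes shifted to -0.14, and in DMH against DM it was -0.54 to -0.32 without single libraries. Subtracting the median of a length class, an alternative chosen after seeing the data, gave member medians of -0.47 for DMH against DM, -0.30 for DMH against CTL and 0.06 for DM against CTL.

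Over all genes, the 32 called in DM against CTL became 929 with DESeq2, 65 with no filter, 80 (67 lower, against 10 of 32) with limma on log2(FPKM + 1), 367 in a fit of the 2 groups alone, 3 with the mitochondrial covariate, 1154 by fold 2 with unadjusted p and 7 to 248 without single libraries. In DMH against DM the 5 became 717 with DESeq2, 12 with a strict filter, 2 with the mitochondrial covariate, 749 by fold 2 and 1 to 155 without single libraries. In DMH against CTL the 2255 (1193 lower) became 1012 (744 lower) with limma on log2(FPKM + 1), 866 (625 lower) on log2(FPKM + 0.1), 629 in a fit of the 2 groups alone, 0 with the mitochondrial covariate and 623 to 2967 without single libraries. The cause was not tested.

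Replicate numbers did not pair the libraries (12 same-numbered pairs, r from -0.13 to 0.11, 1 of them above 0.1, and 2 of 12 libraries closest to their own number). With a replicate block, 2 members (Atp5o and Uqcrh) and 1001 genes were called in DMH against CTL, and 1 gene in each other comparison. Of 748 fold changes of single members under 22 alternatives, 580 kept direction and side of the threshold, 155 lost and 8 gained a call, and 5 changed sign, none of them called. These were Sdhc in DM against CTL (-0.036 with limma on log2(FPKM + 1) and -0.038 on log2(FPKM + 0.1)) and Sdhd in DM against CTL. Sdhd lay below 0 in the main fit and was 0.49 with the mitochondrial covariate. Without single CTL libraries Sdhd ran from -0.29 to 0.093, and only the values above 0 changed sign.

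Each group has 4 libraries of 13430122 to 17038017 counts, which limits the genes near 0 such as Cox4i2 and Cox8b, while calls of the abundant members turn on the spread between libraries.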
